A study of Rattus norvegicus with 6 samples.

Results

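Clusterin (Clu) and alpha-B-crystallin (Cryab) are chaperone genes whose signals were low in HRAS-transformed FE8 rat fibroblasts compared with the immortal, non-transformed fibroblast line 208F. All probe sets that the array annotation assigns to 1 gene only, with the symbol Clu or Cryab, were taken. This gave 3 probe sets of the 4818 tested, 1 for Clu (M64733mRNA_s_at) and 2 for Cryab (M55534mRNA_s_at and X60351cds_s_at). A probe set is a group of short probes for a stretch of a transcript, and the suffix _s marks one that may be shared between transcripts. These are 2 of the 2890 genes named by such probe sets. The genes were chosen by their low signal in FE8 on these arrays, so their line differences are given as a description without a test. Clusterin is also the gene that the study itself followed up.

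Each array measured total RNA of 1 of 4 groups. Untreated 208F (n = 1) and untreated FE8 (n = 1) were set beside 208F (n = 2) and FE8 (n = 2) given 5-aza-2'-deoxycytidine at 0.3 µM for 96 h. This drug is a cytidine analogue that is built into DNA and traps DNA methyltransferases, so that methylation is lost as cells divide. The study asked which genes respond to demethylation in each line. FE8 was the only transformed line, and what sets it apart from 208F beside the oncogene cannot be told apart from transformation. Nothing in the labels tells whether duplicates were separate cultures, and the spread between them may be technical.

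Clusterin, also called apolipoprotein J and, in older rat work, SGP-2 or TRPM-2, is a secreted glycoprotein. It binds unfolded proteins outside the cell and keeps them in solution, holds back the terminal complement complex, and is taken up through receptors of the LDL receptor family such as Lrp2. Alpha-B-crystallin is a small heat shock protein of lens, heart and skeletal muscle that forms large oligomers, binds unfolding proteins without using ATP, and protects intermediate filaments such as desmin. Both genes are known to be induced by stress, and the clusterin and alpha-B-crystallin promoters carry elements that heat shock factor 1 can bind.

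The arrays had median signals between 354 and 422. The untreated arrays were run on 1 day with chips of lot 1, and the treated arrays on later days, 208F replicate 1 with lot 2 and the other 3 with lot 3. The drug and the run day therefore cannot be told apart. The ratio of 5' to 3' signal of beta-actin, a sign of RNA integrity, was 0.824 in untreated 208F and between 0.351 and 0.529 on the other arrays. For GAPDH it was 0.916 and 0.691 on the untreated 208F and FE8 arrays and between 1.010 and 1.132 on the treated ones. The part of these differences in the results below was not tested. Of 8 measured fibroblast markers, Vim was at 7118 or more and S100a4 at 14411 or more on every array. The 4 matrix genes Col1a1, Col1a2, Col3a1 and Fn1 were called lower in FE8 in both line comparisons. Of all probe sets, 2.82% were called lower without the drug and 3.65% with it. Thy1 (log2 difference 0.25 without and -0.25 with the drug) and Pdgfra (0.51 and 0.29) were not called between the lines, nor were Vim and S100a4. Of the markers of blood vessel and white blood cells only Kdr (2 to 84) and Cd14 (160 to 446) were measured.

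Among the 208F arrays the Clu signal was 5639 without the drug and 11176 and 7531 with it. Among the FE8 arrays it was 2136 without and 3799 and 3293 with the drug. Every FE8 array lay below every 208F array. In both lines each treated array lay above the untreated one. Untreated FE8 held 37.9% of the Clu signal of untreated 208F, and treated FE8 reached 62.9% of it on average. In these bulk samples, fewer cells with the transcript and less transcript per cell cannot be told apart.

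By M55534mRNA_s_at, the Cryab signal of 208F was 1420 without the drug and 6365 and 4939 with it, and that of FE8 was 37 without and 490 and 341 with it. By X60351cds_s_at, it was 755 without and 3337 and 1825 with the drug in 208F, and 21 without and 92 and 107 with it in FE8. Both probe sets ranked the groups in the same way and separated every FE8 array from every 208F array. The untreated FE8 signals of 37 and 21 lay under 64, the 10th percentile of all values in the table, where a signal is hard to tell from background. Untreated FE8 held 2.61% and 2.78% of the untreated 208F signal by these probe sets, and treated FE8 reached 29.3% and 13.2% of it. The 2 Cryab probe sets share a target and are not replicates of a condition.

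**Figure D1:**
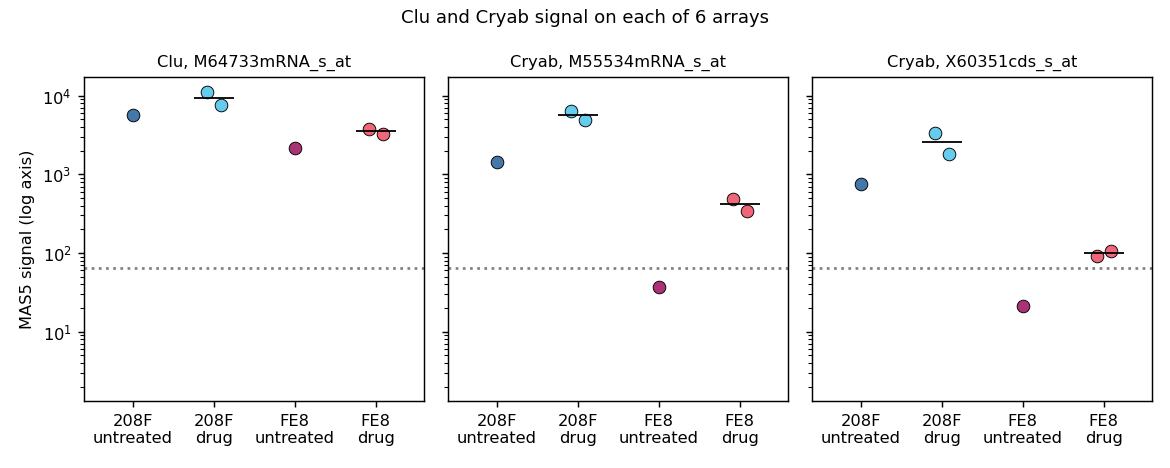
MAS5 signal (vertical log axis) of the Clu probe set and both Cryab probe sets in the 4 groups. Each point is 1 array, bars are means of the treated duplicates, and the dotted line is a signal of 64. In all panels treated 208F is highest and untreated FE8 lowest, and the untreated FE8 points of Cryab lie under the dotted line at 37 and 21.

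From high to low, the order was treated 208F, untreated 208F, treated FE8 and untreated FE8 for all 3 probe sets. Among all 4818 probe sets, 9.53% had every FE8 array below every 208F array and 28.5% had both treated arrays above the untreated array in both lines. The whole order without overlap was found in 69 probe sets, 1.43% of all. It includes the low signal in FE8 by which the genes were chosen, so this share is a description. On the log2(signal + 64) scale, the gap between untreated 208F and the lower treated 208F array was 0.41 for Clu, less than the 0.57 between those duplicates. These neighbours therefore did not differ beyond their spread for Clu. The other Clu gaps were 0.56 from treated FE8 to untreated 208F and 0.61 from untreated to treated FE8, against 0.20 between the FE8 duplicates. For Cryab every gap between neighbouring groups was wider than the distance of the duplicates beside it, the narrowest being 0.88 between untreated and treated FE8 by X60351cds_s_at, against 0.13 between the FE8 duplicates.

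The first comparison set FE8 against 208F without the drug. Clu was 2.64-fold lower in FE8 by signal, and Cryab 38.4-fold and 36.0-fold lower by its 2 probe sets. On the log2(signal + 64) scale used for the fits, which holds down differences of low signals, the value was -1.37 ± 0.35 for Clu (SE). It was -3.88 ± 0.36 for Cryab by M55534mRNA_s_at and -3.27 ± 0.45 by X60351cds_s_at. These differences stood at ranks 165, 16 and 28 from the lowest of 4818. They used 1 array per line, both of lot 1, and the errors are borrowed from the treated duplicates. With a pseudocount of 16 the Cryab differences were -4.76 and -4.38, and with one 4 times the main value they were -2.52 and -1.87, so the size for Cryab depends on how its near-background signal is treated.

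With the drug in both lines, Clu was 2.64-fold lower in FE8 by mean signal on the 4 treated arrays. These arrays also entered the choice of the genes, so the comparison is not an independent repeat. Cryab was 13.6-fold lower by M55534mRNA_s_at and 25.9-fold lower by X60351cds_s_at. The log2 differences were -1.36 ± 0.25 for Clu, -3.58 ± 0.26 and -3.96 ± 0.32, at ranks 120, 12 and 8 from the lowest. Within lot 3, that is without 208F treated replicate 1, they were -1.08, -3.40 and -3.53. Treated FE8 held 37.9% of the treated 208F signal of Clu and 7.35% and 3.86% of that of Cryab. Cryab thus remained far apart between the lines in the presence of the drug, and Clu by the same ratio as without it.

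The next comparison asked how each line responded to the drug. The Clu signal was 1.66-fold higher under the drug in 208F and 1.66-fold higher in FE8. The log2 differences were 0.70 ± 0.30 and 0.71 ± 0.30. The 208F value ran from 0.41 without treated replicate 1 to 0.98 without replicate 2, so 1 array moves it by over 1.5 times. Cryab by M55534mRNA_s_at was 3.98-fold higher in 208F and 11.2-fold higher in FE8, with log2 differences of 1.93 ± 0.31 and 2.23 ± 0.31. By X60351cds_s_at the ratios were 3.42 in 208F and 4.74 in FE8, and the log2 differences were 1.63 ± 0.39 and 0.94 ± 0.39. The 2 probe sets of Cryab thus gave a like change in 208F but a different size in FE8, where both started under a signal of 64. No p is given for either line alone, since the untreated arrays also entered the line difference on which the genes were chosen.

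The drug effect in FE8 minus that in 208F was 0.01 ± 0.43 for Clu, and 0.30 ± 0.45 and -0.69 ± 0.56 for Cryab on the log2 scale. Each of these was within 2 standard errors at the main pseudocount. For Cryab the value depended on the pseudocount. M55534mRNA_s_at gave 1.03 ± 0.48 with a pseudocount of 16 and -0.62 ± 0.37 with one 4 times the main value. X60351cds_s_at gave -0.05 ± 0.62 and -1.08 ± 0.45 in the same settings. The Cryab probe sets thus went beyond 2 standard errors in 1 setting each, and in opposite directions, so no direction can be given for Cryab.

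**Figure D2:**
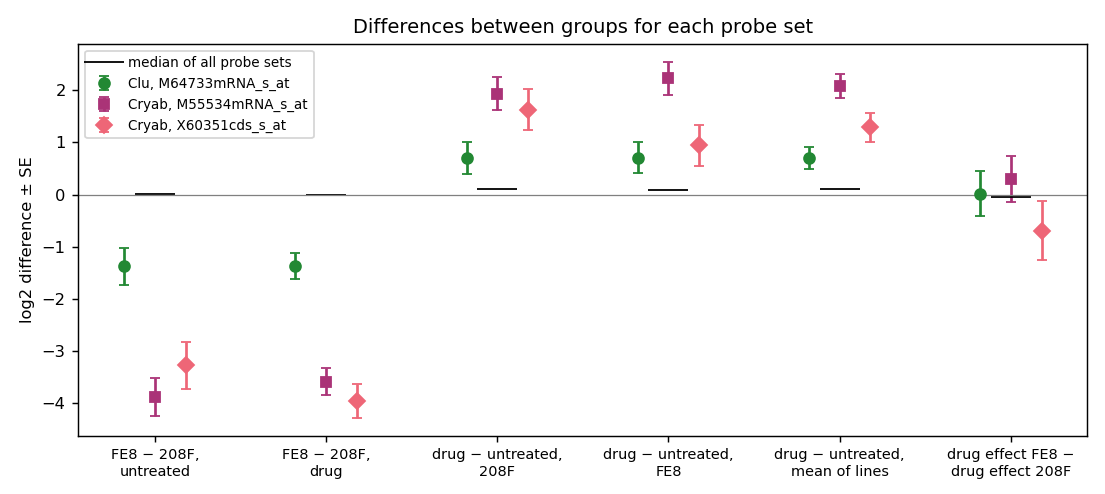
Log2 differences of log2(signal + 64) for each probe set in 6 comparisons, with standard errors of the limma fit as bars and the median of all 4818 probe sets as black dashes. Cryab is between -3.96 and -3.27 in both line comparisons and Clu near -1.4, and all 3 probe sets are above 0 in the drug comparisons apart from the difference between the drug effects.

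The mean of the drug effects in both lines does not depend on the line difference when array errors are independent and equal, and was the contrast tested for these genes. With limma's moderated test and Benjamini-Hochberg adjustment over 4818 probe sets, Cryab rose by 2.08 ± 0.22 (adjusted p = 0.000145) by M55534mRNA_s_at and by 1.29 ± 0.28 (adjusted p = 0.0104) by X60351cds_s_at. Clu rose by 0.70 ± 0.21 (adjusted p = 0.0478). Higher calls made up 9.07% of all probe sets in this comparison, and the probe sets stood at ranks 57, 191 and 604 from the highest. The treated arrays were above the untreated one in 4 of 4 cases for each probe set, as they were for 28.5% of all probe sets.

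The Clu call was at the edge of the threshold. Its adjusted p was 0.257 without FE8 treated replicate 1, 0.173 without replicate 2, 0.191 after median scaling, and between 0.0055 and 0.102 in the other settings apart from 5.67e-06 without 208F treated replicate 2. The median of all probe sets in this comparison was 0.11, and -0.01 after median scaling. Relative to that median Clu was higher by 0.60, and the Cryab probe sets by 1.98 and 1.18. The call of M55534mRNA_s_at held in each setting tried (adjusted p up to 0.0119), while that of X60351cds_s_at was lost without FE8 treated replicate 1 (0.0743) or 2 (0.0754). Since the study took up clusterin with these arrays in hand, its p is not independent evidence of a response. The same holds for Cryab, as both genes were chosen with earlier results of these data known. The drug cannot be told apart from the run day, and the spread between duplicates may be technical.

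Other chaperones were read beside Clu and Cryab to see whether the families moved as a whole. They were 28 measured genes among small heat shock proteins, heat shock factors, cytosolic HSP70 and HSP90 proteins with their co-chaperones, and chaperonins with mitochondrial chaperones, each by its brightest probe set. None of the 28 had the order of levels that Clu and Cryab shared. That order includes the low FE8 signal by which Clu and Cryab were chosen. It was found in 1.43% of all probe sets, a share at which fewer than 1 of 28 would have it. In untreated FE8 against 208F, limma called 1 of 28 lower and none higher (1 higher at an unadjusted p under 0.05), where 2.82% of all probe sets were called lower and 3.09% higher, and the median was -0.14 against 0.02 for all probe sets. Leaving out either of the 208F treated replicates gave 1 gene called higher. Under the drug limma called none of 28, with 3 higher and 1 lower at an unadjusted p under 0.05, where 7.08% of all probe sets were called. The median was 0.10, and 4 were called higher without 208F treated replicate 1, while 1 was called lower after quantile normalization and 1 without 208F treated replicate 2.

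The 1 gene called lower was Hspb1, which encodes HSP27, a small heat shock protein that can form mixed oligomers with alpha-B-crystallin. In 208F its signal was 9216 without the drug and 8690 and 6589 with it, and in FE8 it was 2765 without and 4641 and 4361 with it. By its brightest probe set it lay below 208F on every FE8 array, as did Cryab and 9.53% of all probe sets. Unlike Cryab, it was not above the untreated array in treated 208F. Its log2 difference between the untreated lines was -1.71 ± 0.33 (limma adjusted p = 0.00935, and 0.104 and 0.102 without FE8 treated replicates 1 and 2). Of its 3 other probe sets, 2 were also called lower, at -2.06 and -3.03, and the third stood at -0.20. Under the drug the Hspb1 line difference was -0.74, and its mean drug effect of 0.20 was not called (adjusted p = 0.55).

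Hspb6, the other small heat shock protein measured, had signals between 234 and 550, with line differences of -0.42 without and -0.26 with the drug, neither of them called. Hsf1, the transcription factor that switches on heat shock genes, had line differences of -0.10 and 0.26 by its brightest probe set, also not called. Its mean drug effect was -0.33 by that probe set (not called) and -0.90 by another (adjusted p = 0.0176 in limma). Crybb2, the only other lens crystallin measured, had signals between 82 and 188.

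For the mean drug effect, 4 of 28 chaperone genes were called higher, beside 9.07% of all probe sets, and none lower, beside 6.5%, with 2 lower at an unadjusted p under 0.05 in limma. The 4 were Hspa2 (1.31), Hspa1a (1.25), Hsph1 (0.82) and Dnaja4 (0.78), members or helpers of the HSP70 machinery. A second probe set of Dnaja4 stood at 0.41 and was not called (limma adjusted p = 0.34), while a second one of Hsph1 was called at 1.23. With all arrays kept, the Dnaja4 call was lost after quantile normalization, after median scaling and without the intensity trend. Of the 4, Hspa1a and Hspa2 had signals of 41 or less on the untreated arrays. The count was 2 after median scaling, 2 among probe sets with a mean signal of at least 200, 2 without FE8 treated replicate 2 and 1 without replicate 1, but 5 and 6 without 208F treated replicates 1 and 2. Lower calls numbered 1 after median scaling and 3 without 208F treated replicate 1. In 208F alone 1 gene rose, Hspa2, beside 3.59% of all probe sets called higher, and in FE8 alone 1, Hsph1, beside 5.06%. At an unadjusted p under 0.05 limma gave 2 higher and 1 lower in 208F, and 7 higher and 1 lower in FE8. The Hspa2 call in 208F was lost with the larger pseudocount, after quantile normalization and without 208F treated replicate 2, and both calls were lost without either FE8 treated replicate. Without 208F treated replicate 1 there were 3 higher and 2 lower calls in 208F, and leaving out either of the 208F treated replicates gave 5 higher calls in FE8. The medians of the 28 genes were -0.11 in 208F, 0.14 in FE8 and 0.02 for the mean of the lines, against 0.11, 0.08 and 0.11 for all probe sets. The untreated signals of Hspa1a and Hspa2 lay under 64, so the size of their rise depends on the pseudocount and is not ranked against that of Cryab. With a pseudocount of 16 the mean drug effect was 2.27 for Hspa2 and 1.83 for Hspa1a, beside 2.49 and 1.66 for the Cryab probe sets.

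**Figure D3:**
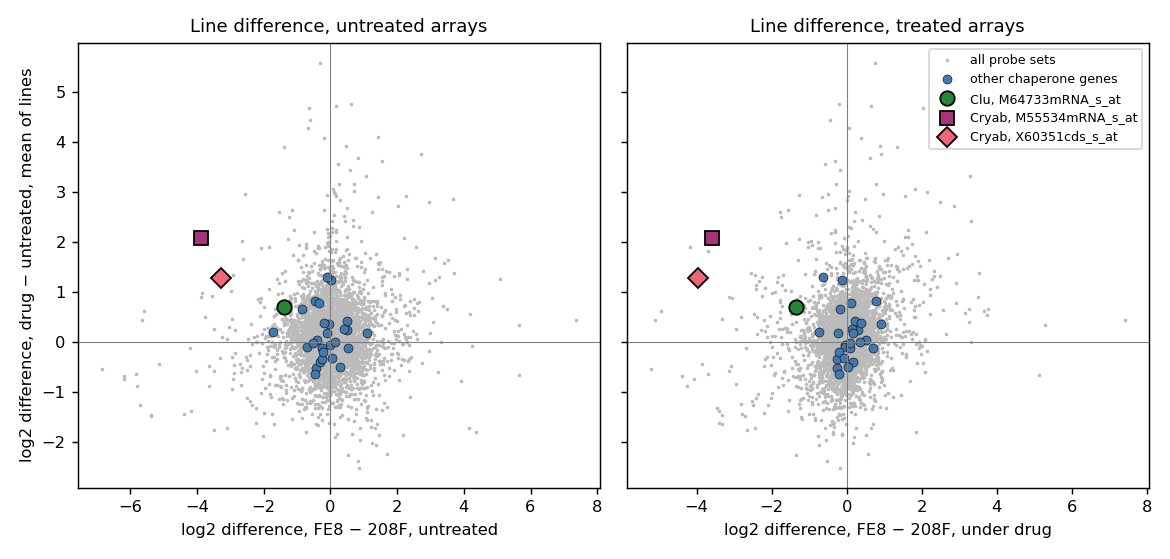
Log2 difference between the lines (horizontal axis, untreated arrays on the left and treated arrays on the right) against the mean drug effect of both lines (vertical axis, log2). Grey dots are all 4818 probe sets and blue points 27 other chaperone genes by their brightest probe set (Hsf1 is not drawn). Both Cryab symbols lie far to the left of the blue points, with the M55534mRNA_s_at symbol above them at 2.08 and the X60351cds_s_at symbol level with the highest of them, and Clu lies to their left at -1.37 and -1.36, with Hspb1 alone further left among the untreated arrays.

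Genes tied to the roles of each protein were also read. Of clusterin's receptors, 2 were measured. Vldlr, a lipoprotein receptor, was higher in untreated FE8 by 2.26 ± 0.43 (limma adjusted p = 0.00902), opposite to Clu. Its signal was 495, against 53 in untreated 208F. The latter lay under 64, where a signal is hard to tell from background, so the size of the difference depends on the pseudocount. It was 2.89 with a pseudocount of 16 and 1.28 with the larger one, and was called in both. Under the drug the Vldlr signals were 132 and 115 in 208F and 295 and 335 in FE8. That difference of 1.01 was not called. The other receptor, Lrp2, had signals of 64 or less on all arrays. Of 8 other secreted proteins that bind amyloid or lipid, such as Apoe and Cst3, limma called none between the lines in either comparison, with 1 higher and 1 lower at an unadjusted p under 0.05 in each. The shares of all probe sets called were 3.09% higher and 2.82% lower without the drug and 7.08% in all with it, so counts of 0 in lists of this size are near the background. Of 11 members of the BCL2 family and caspases, the cell death machinery that intracellular clusterin is reported to touch, limma called none between the lines either, with 2 higher and 1 lower at an unadjusted p under 0.05 without the drug and 2 higher with it. In the mean drug effect limma called 1 of the 8 secreted proteins higher, Sparc at 0.84 (adjusted p = 0.0367), beside 9.07% of all probe sets. It called 1 of the 11 death genes lower, Bad at -0.84 (adjusted p = 0.0128), beside 6.5% of all. Counts of 1 in lists of this size are near these shares. Both calls were lost without either FE8 treated replicate. That of Sparc was also lost after median scaling and without the intensity trend.

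Of 7 intermediate filament and sarcomere genes whose products alpha-B-crystallin is known to bind or accompany, Nes (nestin) was called lower in FE8 without the drug, at -2.36, and both Nes (-1.45) and Flnc (-0.87) with it, where 3.65% of all probe sets were called lower. The Nes call with the drug was lost without FE8 treated replicate 2 (limma adjusted p = 0.2), and that of Flnc without either FE8 treated replicate, with quantile or median scaling and without the intensity trend. In the mean drug effect, Des (desmin, 2.65), Krt8 (4.08) and Krt18 (1.64) rose, beside 9.07% of all probe sets called higher. The untreated signals of Des (25 in 208F and 14 in FE8) and Krt18 (3 and 5) lay under 64, so the size of their rise depends on the pseudocount. It was 3.71 and 3.04 with one of 16, and 1.43 and 0.64 with one 4 times the main value. In the same effect Lmna (-1.11), Vim (-0.80) and Flnc (-0.67) fell, beside 6.5% called lower. Of these falls, those of Vim and Flnc were lost without either FE8 treated replicate, that of Lmna without replicate 1, and that of Flnc also after quantile normalization and without the trend. Desmin, the muscle filament that alpha-B-crystallin protects, had a signal of 25 without and 553 and 1241 with the drug in 208F, and of 14 without and 141 and 383 with it in FE8. As with Cryab and 28.5% of all probe sets, each treated array lay above the untreated array of its line. Desmin was near background in both untreated lines, whereas Cryab was not in 208F.

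Cryab is also made in smooth muscle, so markers of contractile cells were read on the same arrays. The 2 measured, Acta2 and Tagln, summed in 208F to a signal of 10105 without and 2926 and 2969 with the drug, and in FE8 to 268 without and 397 and 292 with it. They were low in FE8 like Cryab but fell in treated 208F, where Cryab was higher. Their log2 differences there were -2.03 for Acta2 and -1.58 for Tagln (limma adjusted p = 0.00312 and 0.0191), and the Tagln call was lost without either FE8 treated replicate and with a pseudocount of 16. The 3 epithelial markers measured, Krt8, Krt18 and Epcam, summed to 168 and 145 in untreated 208F and FE8. In the treated arrays of both lines the sum was higher, between 3039 and 4418. Most of it was Krt8, at 159 and 131 without and between 2825 and 4077 with the drug. Krt18 was at 3 and 5 without and between 116 and 172 with it. Epcam was at 6 and 9 without it, and with it at 92 and 45 in 208F and 335 and 199 in FE8. Without the drug both Krt18 and Epcam lay under 64. The lens markers Crybb2 and Mip summed to between 270 and 663. The part of these markers in the Cryab values was not tested.

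Genes whose pattern over the 6 arrays was most like each member were named by Pearson's r of log2(signal + 64), among probe sets whose SD over the arrays was at least 0.5 times that of the member. The arrays of a group share cells, treatment and run day, so r is a description. Clu and Cryab were both chosen for low signal in FE8 on these arrays, so their likeness follows in part from the choice. Of the 1527 probe sets compared with Clu, Cryab was the most alike (r = 0.986 by M55534mRNA_s_at), although its changes were much larger. It was followed by Timp2, an inhibitor of metalloproteinases (r = 0.983), the collagen receptor Ddr1 (0.980), the RNA-binding protein Celf2 (0.971), the glutamate transporter Slc1a3 (0.970) and Cd55, which restrains complement on the cell surface (0.970). Slc1a3 had signals between 10 and 99 over all arrays, Celf2 between 15 and 71 in FE8, and Ddr1 51 in untreated FE8. These lie near or under 64, where a signal is hard to tell from background. The Timp2 signal of 208F was 8329 without and 11354 and 8570 with the drug, and that of FE8 was 3175 without and 4818 and 4507 with it. This is the order of Clu, with the same line difference of -1.37 without the drug and one of -1.07 with it. The brighter probe set of Cd55 did not follow the pattern, with line differences of 0.33 and -1.13.

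For Cryab, 161 probe sets varied enough to be compared, and the Clu probe set was not among them because its changes were too small. The most alike was Myod1, a transcription factor that starts the skeletal muscle programme (r = 0.980). Its signal was 260 without and 1302 and 1147 with the drug in 208F, and 12 without and 206 and 188 with it in FE8. Next came the small GTPase Rhob (0.974), the muscle ankyrin repeat protein Ankrd1 (0.971), the growth arrest gene Gas6 (0.968), the gelatinase Mmp2 (0.962) and Ddah1, which degrades inhibitors of nitric oxide synthesis (0.960). Their line differences lay between -3.54 and -1.84 without the drug and between -3.07 and -1.82 with it. In untreated FE8 the signals of Myod1 (12), Mmp2 (21), Ddah1 (57) and Gas6 (63) lay under 64, while Rhob (165) and Ankrd1 (511) lay above it. That of Ddah1 was also 63 in FE8 treated replicate 2. Signals this low are hard to tell from background, so the size of those line differences depends on the pseudocount. The second Cryab probe set correlated with the first at r = 0.972.

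**Figure D4:**
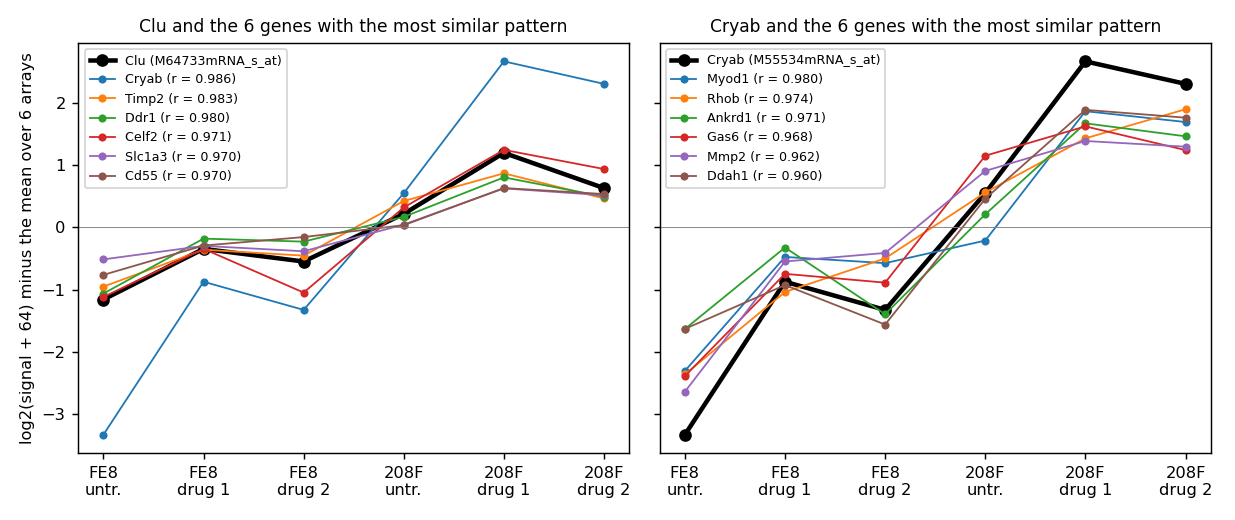
Log2(signal + 64) minus its mean over the 6 arrays (vertical axis) for Clu (left, black) and Cryab by M55534mRNA_s_at (right, black), each with the 6 genes of highest Pearson r in colour, over the arrays of FE8 and 208F. All lines are lowest in untreated FE8 and highest in treated 208F, and Cryab spans a wider range than Clu and its other neighbours in the left panel.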

How the data were processed

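Arrays of the Affymetrix rat genome series (chip type per the file headers) were measured for 6 RNA samples. Each deposited value is the signal intensity of a probe set, rounded to whole numbers, made with MAS5 per the submitters' processing notes, with version and scaling not given in the sources used here. Of 4847 probe sets, 29 controls were left out. The labels do not say which filter left 4847 probe sets in the values, so shares and ranks hold only for those tested. Probe sets were named from the platform annotation, with symbols updated by gene identifier through RefSeq's GRCr8 table (3956 with 1 gene, 207 with several, 655 with none). The number of arrays limits the precision.

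Signals were transformed as log2(signal + 64). Means of the 4 groups were estimated in limma 3.58.1 under R 4.3.3 (lmFit and eBayes with intensity trend, 2 residual and 9.02 prior degrees of freedom), with 2-sided tests, Benjamini-Hochberg adjustment over 4818 probe sets and a threshold of 0.05. Errors given as ± are standard errors. The fit was tested on simulated data. Members and lists were chosen with earlier results of these data known. List genes were represented by their brightest probe set. Those named were the called ones, up to 4 per direction, and all small heat shock proteins, heat shock factors and receptors. The 6 genes most like each member were named. Alternatives were other pseudocounts (16, and 4 times the main value), quantile and median scaling, a mean signal of at least 200, no intensity trend, each treated array left out and a replicate block. Bisulphite sequencing was not analysed here.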

Additional observations from a re-analysis of the deposited data

How the results depend on the processing

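The settings tried were those listed with the processing. Clu and both Cryab probe sets stayed lower in FE8 in both line comparisons and higher under the drug in each line and on average in every one of these settings. The line differences without the drug moved for Cryab with a pseudocount of 16, the low one (-4.76 and -4.38), and with the high one of 4 times the main value (-2.52 and -1.87, for M55534mRNA_s_at and X60351cds_s_at). Those with the drug moved to -3.14 and -2.94 with the high pseudocount, and for X60351cds_s_at to -4.43 with the low one. The FE8 drug effect was 3.0 and 1.64 with the low one, 1.19 and 0.36 with the high pseudocount, and 0.61 for X60351cds_s_at after quantile normalization. For the mean drug effect, Clu missed the threshold at 0.67 with the high pseudocount (adjusted p = 0.0544), 0.55 with median scaling, and an unmoved 0.70 with the signal filter (0.0589) and without the trend (0.102). The difference between the drug effects changed sign for Clu with the high pseudocount (-0.013) and quantile normalization (-0.13), and for M55534mRNA_s_at with the high pseudocount (-0.62). It was 1.03 with the low one and 0.018 after quantile normalization for M55534mRNA_s_at, and -0.049 with the low one and -1.08 with the high pseudocount for X60351cds_s_at.

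With each treated array left out in turn, the Clu values ranged from -1.64 to -1.08 for the line difference with the drug, 0.41 to 0.98 for the 208F drug effect, 0.56 to 0.84 for the mean drug effect and -0.27 to 0.30 for the difference between the drug effects. Without FE8 treated replicate 1 that last value was -0.09. For X60351cds_s_at these ranges were -4.38 to -3.53, 1.21 to 2.05, 1.07 to 1.5 and -1.11 to -0.26. When an FE8 duplicate is left out, only the 208F duplicates give the error. Calls over all probe sets ranged from 109 to 541 (285 with all arrays) for the untreated lines, 96 to 530 (341) for the treated lines, 75 to 663 (250) for the drug in 208F, 76 to 783 (393) in FE8 and 264 to 1161 (750) for the mean drug effect. After quantile normalization the drug calls were 165 in 208F and 258 in FE8.

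The treated arrays of the lines share replicate numbers, and replicate 1 minus replicate 2 correlated between the lines with r = 0.319 across probe sets, but 2 pairs cannot show that the numbers pair the samples. With the replicate block the line differences with the drug stayed at -1.36, -3.58 and -3.96 and 325 probe sets were called. Signals under 64 limit what can be said of Cryab in untreated FE8.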
